A study of Mus musculus with 6 samples.

Results

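Matrix metalloproteinases, the secreted ADAMTS proteases and the tissue inhibitors of metalloproteinases (Timps) were followed across the cells of mouse pancreatic tumours. The members are the 47 genes of 29781 listed in any library whose symbol is Mmp, Adamts or Timp followed by a digit, which gave 24, 19 and 4 genes. One of them, Mmp24os1, is an opposite-strand transcript at Mmp24 and not a protease. KPC cells, a pancreatic cancer line of the mouse, had been placed in the pancreas of 6 wild-type C57BL/6J mice. Of these mice, 3 received IgG and 3 received #44-anti-mVSIG4, an antibody to VSIG4, a receptor of the immunoglobulin family found on resident-type macrophages. All tumours were taken 11 days after inoculation, and each mouse gave 1 single-cell RNA library; doses are not given in the labels. All groups share the same tumour line, so values describe 1 line in 1 mouse strain.

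Matrix metalloproteinases are zinc enzymes that cut collagens, elastin, other matrix proteins and many signalling proteins. Most are secreted as inactive precursors, while the membrane-type members sit on the cell surface and can activate others. ADAMTS proteases cut proteoglycans and trim procollagens, and Timps bind and block the active enzymes. In pancreatic tumours, which are rich in collagenous stroma, these genes are known from fibroblasts, myeloid cells and tumour cells.

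The libraries held between 26606234 and 47221033 unique molecular identifiers (UMIs, each marking 1 captured RNA molecule), and 47603 of 47794 barcodes were kept. Cells were clustered without the 47 members and the clusters were named from marker genes, so each class is named only for its resemblance to that cell type. Of the classes, 10 had at least 20 cells in every library. Clusters rich in reads of long genes, called nucleus-like, made up 42.8% of kept cells in IgG 3, 15.9% in IgG 2 and 5.03% in anti-VSIG4 3, against at most 0.349% in the other libraries. They were kept out of every named class. Levels are given as CPM, the UMIs of a gene scaled to a fixed total of UMIs in the cells of 1 class in 1 library. They are compared for 1 gene across classes or groups and not between genes, and the order of classes is a description with no test, since classes come from clustering the same cells. Means over 6 libraries take both groups together and are given ± SD. For each member with a low level, T cells serve as the class beside which free RNA can be read. Median depth was 3022.5 UMIs per T cell, 1583 per neutrophil, 4510 per monocyte/macrophage, 4787 per fibroblast and 6314.5 per tumour/epithelial cell.

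Of the 47 members, 41 were listed in all 6 libraries, 38 had at least 50 UMIs and 9 had fewer (Adamts13, Adamts18, Mmp16, Mmp1a, Mmp1b, Mmp20, Mmp21, Mmp27 and Timp4). Among the 38, fibroblasts were the class with the highest mean for 19 and endothelial cells for 7. Monocyte/macrophages were highest for 3, and neutrophils, NK cells, T cells and tumour/epithelial cells for 2 each. Migratory dendritic cells, the mature dendritic cells that travel to lymph nodes, were highest for 1. For 24 of the 38 the same class was highest in all 6 libraries, and for 16 the range over libraries lay wholly above that of the next class.

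**Figure D1:**
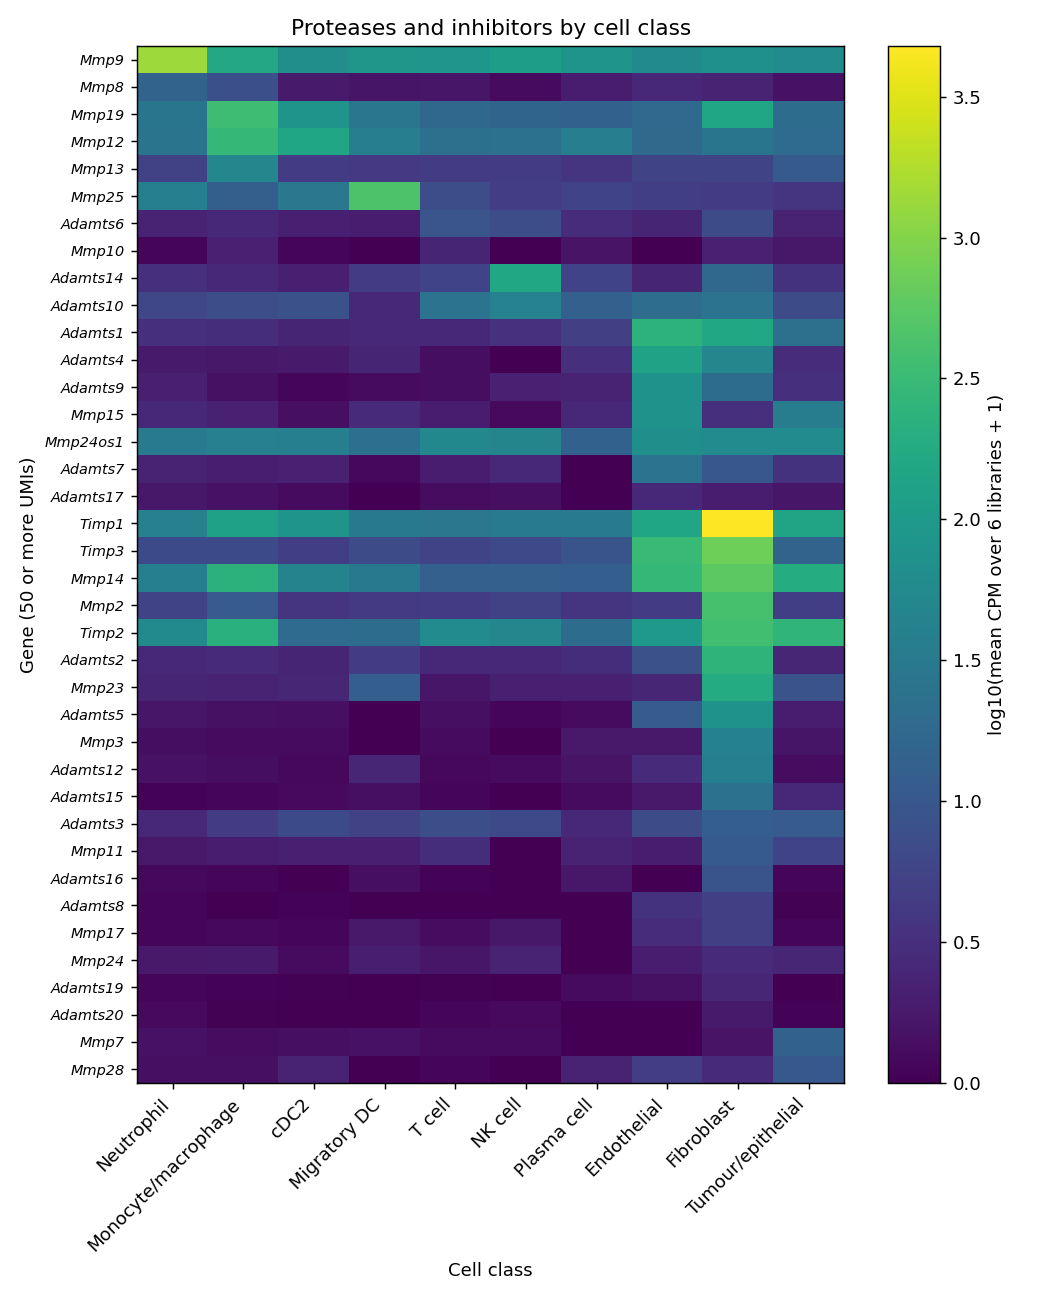
Mean level of the 38 members with at least 50 UMIs (rows) in 10 cell classes (columns), as log10 of mean CPM over 6 libraries plus 1, with rows ordered by the class where each is highest. The fibroblast column holds the highest value of 19 rows, while Mmp9 peaks in neutrophils, Mmp12, Mmp13 and Mmp19 in monocyte/macrophages and Mmp25 in migratory dendritic cells.

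A run of 10 Mmp genes lies on chromosome 9 with no other protein-coding gene between them, in the order Mmp13, Mmp12, Mmp1b, Mmp3, Mmp1a, Mmp10, Mmp8, Mmp27, Mmp20 and Mmp7. Members of this run did not all share a source class. The neighbours Mmp13 and Mmp12 were highest in monocyte/macrophages, Mmp3 in fibroblasts, Mmp8 in neutrophils (4 of 6 libraries) and Mmp7 in tumour/epithelial cells. The 100 bases before the annotated start are shown for these genes and for Mmp10, because the same short motifs recur in genes with different sources. The sequences are from RefSeq (GRCm38.p6), all on the plus strand and written 5′ to 3′. Capitals mark the AP-1 letters TGAGTCA or TGACTCA, which are each other's reverse complement, and the TATA-box letters TATAAA or TTTATA.
Mmp13, chr9:7272414-7272513: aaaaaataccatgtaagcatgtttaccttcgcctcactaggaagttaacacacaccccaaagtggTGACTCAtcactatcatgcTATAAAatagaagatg
Mmp12, second annotated start, chr9:7347274-7347373: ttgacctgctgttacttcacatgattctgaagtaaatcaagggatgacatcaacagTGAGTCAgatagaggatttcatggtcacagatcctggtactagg
Mmp3, chr9:7445722-7445821: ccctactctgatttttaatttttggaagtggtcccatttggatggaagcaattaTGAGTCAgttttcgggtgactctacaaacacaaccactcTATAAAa
Mmp10, chr9:7502242-7502341: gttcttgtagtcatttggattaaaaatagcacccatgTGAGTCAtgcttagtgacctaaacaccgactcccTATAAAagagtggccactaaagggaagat
Mmp8, chr9:7558329-7558428: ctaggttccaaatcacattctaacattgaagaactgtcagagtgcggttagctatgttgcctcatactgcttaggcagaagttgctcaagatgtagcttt
Mmp7, first annotated start, chr9:7691990-7692089: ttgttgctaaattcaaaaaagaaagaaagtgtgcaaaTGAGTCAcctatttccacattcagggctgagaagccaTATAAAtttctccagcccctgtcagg

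RefSeq promoter windows, each 250 bases before to 50 after a start, were matched for 32 of the 47 members. AP-1 letters were found on either strand for 7 of the 10 members of the chromosome 9 run (Mmp13, Mmp12, Mmp1b, Mmp3, Mmp1a, Mmp10 and Mmp7) and for 0 of the 22 other matched members. Of all 32851 windows in the table, 5.2% held these letters, 13.6% held TATAAA or TTTATA, and 0.941% held both. All 7 of those genes held both in 1 window. Mmp12 and Mmp7 each had another window, at the first annotated Mmp12 start and the second Mmp7 start, that held neither motif. The counts of members are per gene, while the shares of all windows are per window. Counted by window, 7 of 35 member windows held AP-1 letters. In Mmp12 the TATAAA letters lie just past the start and outside the printed stretch, and in Mmp8 TTTATA crosses the start. The motif letters did not sort these genes by source class: fibroblast Mmp3, macrophage Mmp12 and Mmp13 and tumour-cell Mmp7 all held both in 1 window.

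Gelatinases, which cut denatured collagen and basement-membrane collagen, came from different cells. Mmp9 was highest in neutrophils, at 1743, 1112 and 850.2 CPM in the IgG libraries and 1368, 2001 and 1155 CPM in the anti-VSIG4 libraries. Neutrophils held 63.2% of its 57661 UMIs, and a Mmp9 UMI was seen in 71.1% of neutrophils (59.5% after each cell was thinned to 1000 UMIs) against 20.2% of T cells (7.32% thinned). Mmp2 was highest in fibroblasts, with 508, 337 and 324 CPM under IgG and 398, 406 and 481 CPM under anti-VSIG4, while T cells had 3.34 ± 0.688 CPM. The groups overlapped for both genes.

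Among the collagenases, which cut fibrillar collagen, Mmp8 and Mmp13 were both found in myeloid cells. Mmp8, named for neutrophils, had 23.2, 3.92 and 10.6 CPM in IgG neutrophils and 23.9, 7.995 and 14.7 CPM in anti-VSIG4 neutrophils. Monocyte/macrophages had 6.99 ± 2.38 CPM of Mmp8 and held 50.4% of its 1054 UMIs, and T cells had 0.661 ± 0.858 CPM. Mmp13 was highest in monocyte/macrophages, at 75.7, 50.6 and 25.3 CPM under IgG and 70.5, 49.7 and 27.0 CPM under anti-VSIG4. T cells had 3.46 ± 2.69 CPM of Mmp13. Mmp1a and Mmp1b, the mouse interstitial collagenases, had 3 and 7 UMIs in all.

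Stromelysins and matrilysin, which act on proteoglycans and can activate other metalloproteinases, were low. Mmp3 (stromelysin-1) was almost wholly a fibroblast transcript, at 92.5, 38.8 and 19.95 CPM under IgG and 72.6, 20.1 and 1.17 CPM under anti-VSIG4, so libraries within a group differed more than the groups did. Mmp10 (stromelysin-2) had 198 UMIs and no clear source: the highest mean was 1.42 ± 1.87 CPM in T cells and the next 1.18 ± 0.928 CPM in monocyte/macrophages, which held 52.5% of its UMIs. Mmp11 (stromelysin-3) was highest in fibroblasts at 10.02 ± 4.91 CPM. Mmp7 (matrilysin), an epithelial protease, had 87.2% of its 555 UMIs in tumour/epithelial cells, where only 2.05% of cells had a UMI.

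Mmp12, the macrophage elastase, and Mmp19 were the main metalloproteinases of the monocyte/macrophage class. Mmp12 was at 258, 309 and 183 CPM under IgG and 353, 374 and 236 CPM under anti-VSIG4, and this class held 77.3% of its 28271 UMIs. Type 2 conventional dendritic cells (cDC2) came next with 148 ± 42.7 CPM. Mmp19 was at 266, 310 and 324 CPM under IgG and 296, 284 and 608 CPM under anti-VSIG4, with 75.8% of 36963 UMIs in this class. The anti-VSIG4 3 library alone lay far above the others for Mmp19.

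Membrane-type metalloproteinases were spread widely. Mmp14 (MT1-MMP), the collagenase of the cell surface that activates Mmp2, was highest in fibroblasts at 522, 492 and 560 CPM under IgG and 419, 758 and 607 CPM under anti-VSIG4. Endothelial cells had 283 ± 78.3 CPM, monocyte/macrophages 228 ± 59.6 CPM and tumour/epithelial cells 190 ± 41.1 CPM, against 12.5 ± 3.85 CPM in T cells. Monocyte/macrophages held 50.4% of the 33224 Mmp14 UMIs. Mmp15 (MT2-MMP) was highest in endothelial cells at 76.5 ± 5.02 CPM, while tumour/epithelial cells, at 34.0 ± 14.7 CPM, held 73.7% of its 2172 UMIs. Mmp25 (MT6-MMP, also called leukolysin), known as a neutrophil enzyme, was instead highest in migratory dendritic cells in all 6 libraries. It had 526, 394 and 625 CPM there under IgG and 404, 364 and 341 CPM under anti-VSIG4, against 37.2 ± 7.35 CPM in neutrophils and 6.48 ± 3.64 CPM in T cells. A Mmp25 UMI was seen in 70.0% of migratory dendritic cells (31.2% thinned) and 5.06% of neutrophils (3.05% thinned). Mmp17, another membrane-type member, had 97 UMIs and was at 3.99 ± 2.17 CPM in fibroblasts. Of the other metalloproteinases, Mmp23 was highest in fibroblasts at 184 ± 47.7 CPM and Mmp28 (epilysin) in tumour/epithelial cells at 9.39 ± 3.30 CPM.

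ADAMTS genes split between fibroblasts and endothelium. Adamts2, which trims procollagen, had 309, 225 and 263 CPM in IgG fibroblasts and 231, 228 and 212 CPM in anti-VSIG4 fibroblasts. The proteoglycan-cutting Adamts1, Adamts4 and Adamts9 were highest in endothelial cells, at 236 ± 77.1, 133 ± 39.8 and 77.9 ± 18.0 CPM. Adamts5, Adamts12 and Adamts15 were highest in fibroblasts, at 77.2 ± 36.4, 37.6 ± 25.004 and 23.5 ± 10.4 CPM. Adamts14, a procollagen-trimming relative of Adamts2, was highest in NK cells in all 6 libraries, at 168, 192 and 181 CPM under IgG and 101, 130 and 160 CPM under anti-VSIG4. Fibroblasts had 15.7 ± 4.07 CPM of Adamts14 and T cells 4.41 ± 2.06 CPM. Adamts10 was also highest in NK cells (42.2 ± 21.7 CPM), but T cells followed at 24.0 ± 5.90 CPM and the ranges overlapped. Nucleus-like cells, outside the named classes, held 42.5% of Adamts10 UMIs and 34.2% of Adamts14 UMIs, against 4.60% and 34.6% in NK cells. Adamts6 reached only 8.26 ± 3.96 CPM in its highest named class, T cells, and 66.8% of its UMIs were in nucleus-like cells. The nucleus-like cluster with T cell markers held 61.5% of Adamts6 UMIs (98.5 CPM, all libraries pooled) and 34.1% of Adamts10 UMIs (113 CPM). The smaller nucleus-like cluster with NK cell markers had 279 CPM of Adamts10 and 572 CPM of Adamts14.

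Of the inhibitors, Timp1 was above all a fibroblast transcript, at 4581, 3413 and 5643 CPM under IgG and 5241, 7005 and 2840 CPM under anti-VSIG4. Fibroblasts held 70.1% of its 61255 UMIs, and T cells had 27.8 ± 13.9 CPM. Timp2, which at low amounts helps Mmp14 to activate Mmp2, had several sources: 367 ± 113 CPM in fibroblasts and 255 ± 29.5 CPM in tumour/epithelial cells, while monocyte/macrophages held 44.8% of its 34106 UMIs. Timp3, the inhibitor that binds to the matrix, was highest in fibroblasts at 739 ± 313 CPM and next in endothelial cells at 297 ± 105 CPM. Timp4 had 6 UMIs in all, so no source could be given.

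**Figure D2:**
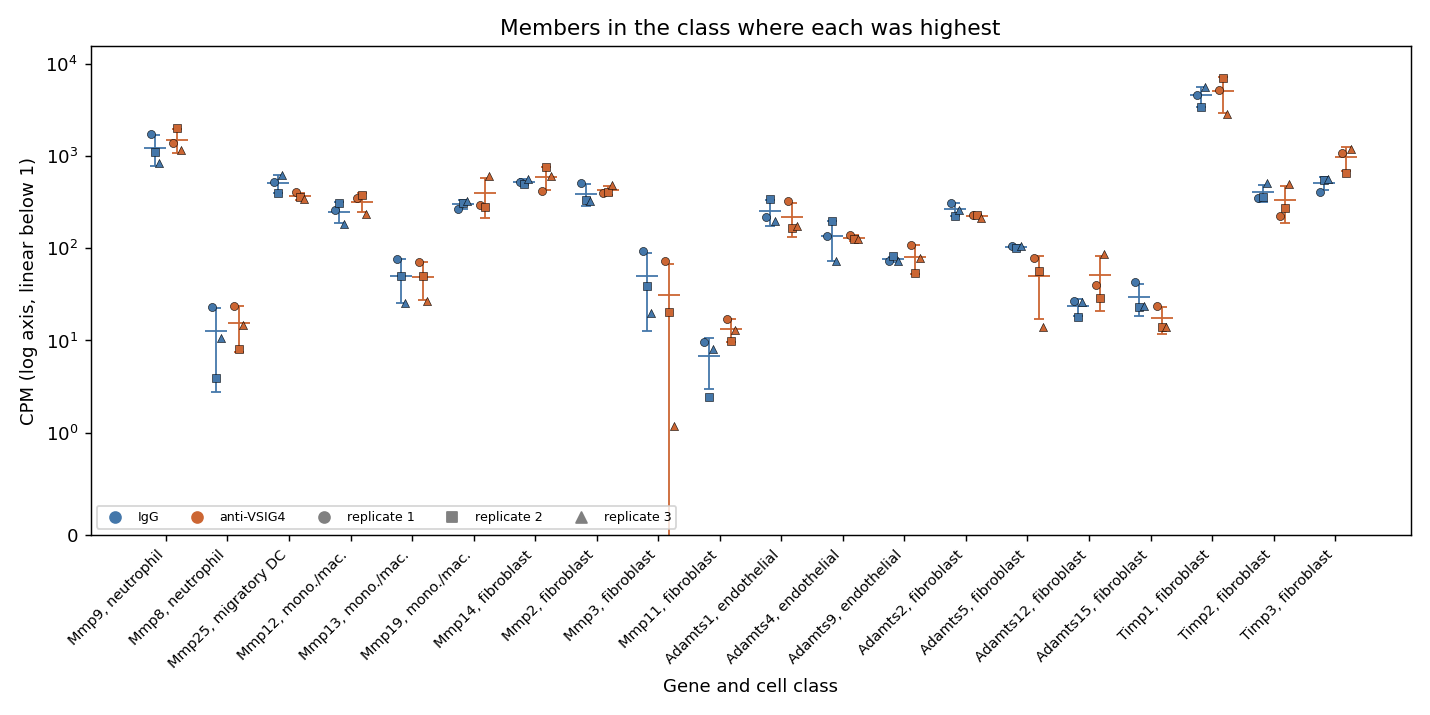
Level of 20 members in the class where each was highest, in CPM on a log axis that is linear below 1; points are libraries (marker shape, replicate number), bars the mean ± SD of 3 libraries per group, ending at 0 where the SD exceeds the mean. The groups overlap for most members, and Mmp3 spans 1.17 to 92.5 CPM.

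Within the monocyte/macrophages, members marked different sub-clusters. Sub-cluster 3 was named Arg1-high and led by Mt2, Gpnmb, Il6 and Nos2, with Saa3 ranked above Arg1 among its leading genes. It had the highest Mmp12 and Mmp13 of the 11 sub-clusters in all 6 libraries and the highest Mmp8 in 5. Mmp12 was there at 1047, 1192 and 577 CPM under IgG and 917, 734 and 651 CPM under anti-VSIG4. Mmp13 in these cells was at 152 ± 66.9 CPM and Mmp8 at 28.6 ± 13.97 CPM, and they held 26.9% of all Mmp8 UMIs. These 3 genes lie in the chromosome 9 run shown above. Classical monocytes (sub-cluster 2) had only 31.7 ± 16.1 CPM of Mmp12 and 5.8 ± 4.09 CPM of Mmp13 but 488 ± 139 CPM of Mmp19. Mmp19 had its highest mean in the unnamed sub-cluster 6, led by Ccl17, Mfge8 and Mgl2, at 594 ± 178 CPM. This sub-cluster was highest in 4 of 6 libraries. The nucleus-like cluster with monocyte/macrophage markers, kept out of the class, had 774 CPM of Mmp19 with all libraries pooled. It held 11.8% of Mmp19 UMIs.

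Mmp9 within the class had its highest mean in the unnamed sub-cluster 4, led by Ctsk, haemoglobin genes and Acp5, which was highest in 3 of 6 libraries, at 216, 77.8 and 553 CPM under IgG and 393, 981 and 271 CPM under anti-VSIG4. Sub-cluster 9 came next at 361 ± 138 CPM. Ctsk and Acp5, like Mmp9, are known from osteoclasts, the bone-resorbing relatives of macrophages. Because free RNA in droplets can carry neutrophil transcripts, Mmp9 UMIs were set against those of S100a8 and S100a9, which neutrophils make in large amounts. There were 3.89 to 8.73 Mmp9 UMIs per 100 S100a8 and S100a9 UMIs in neutrophils and 5.52 to 12.3 in T cells. Sub-cluster 4 had 24.7 to 384. It was 1 of 6 of the 11 sub-clusters above both in every library, with sub-clusters 1 (16.3 to 148), 3 (23.3 to 132), 6, 10 and 11. Tumour/epithelial cells (7.13 to 18.7) were also above both in every library, so the ratio did not single out sub-cluster 4. Sub-cluster 9, whose leading genes are those of neutrophils, had 4.77 to 12.9.

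Timp2 was highest in sub-cluster 8 (Saa3/Marco, 522 ± 105 CPM) and sub-cluster 1 (resident-type, 405 ± 119 CPM) and lowest in classical monocytes at 42.0 ± 9.54 CPM. Sub-cluster 8 also had the highest Timp1, at 284 ± 75.9 CPM.

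**Figure D3:**
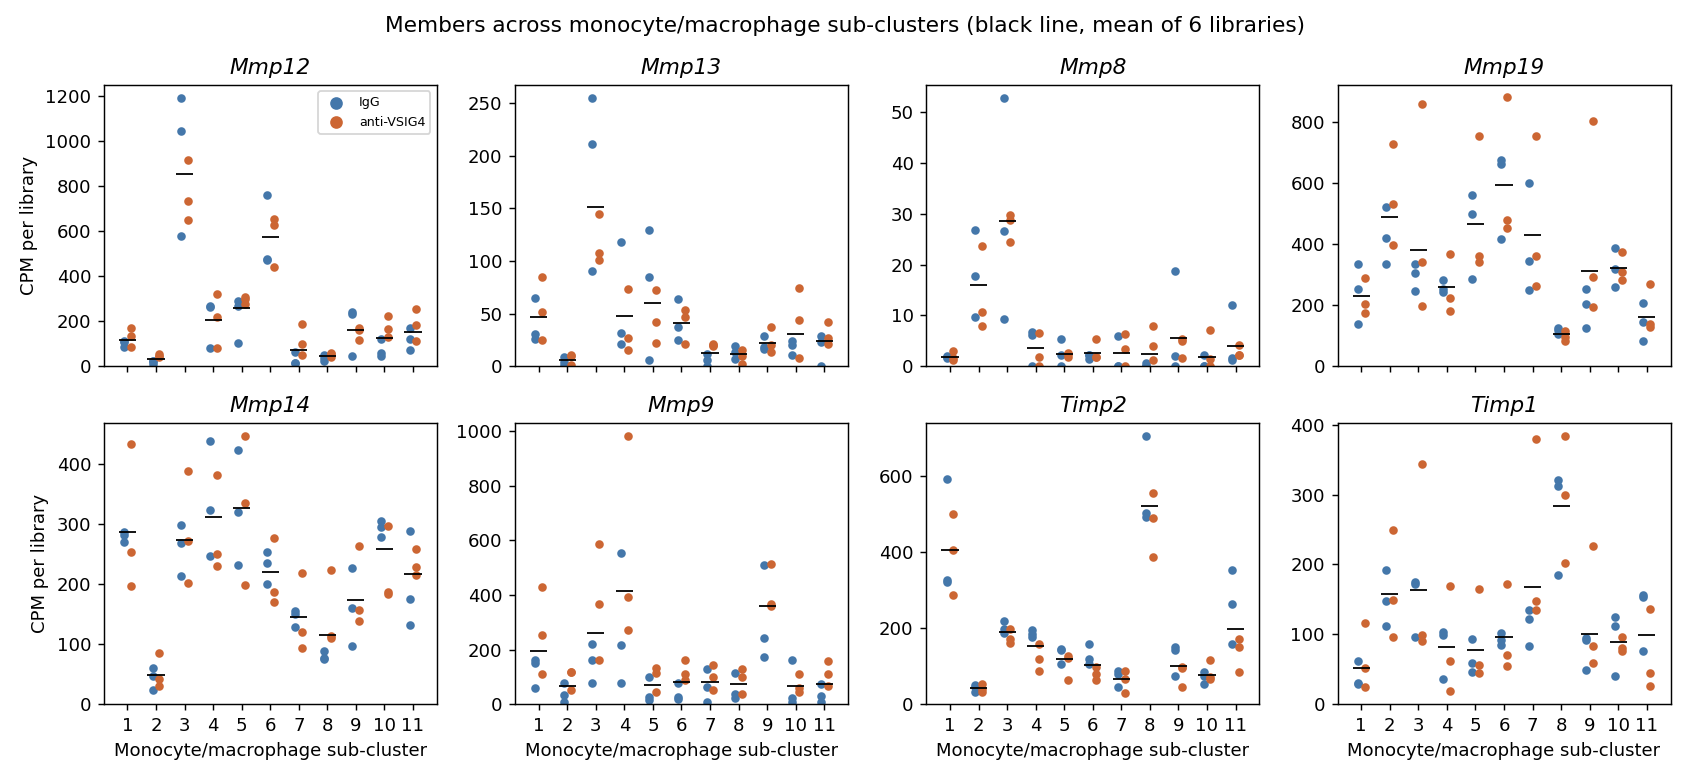
Level of 8 members (panels, CPM) in each library across the 11 monocyte/macrophage sub-clusters (x axis); points are libraries by group and black lines the mean of 6. Mmp12, Mmp13 and Mmp8 peak in sub-cluster 3, Mmp19 in 6, Mmp9 in 4 and Timp2 in 8 and 1.

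Among neutrophils, Mmp9 and Mmp8 had their highest means in different sub-clusters. Mmp9 had its highest mean in the cytokine-making sub-cluster 2 (1759 ± 525 CPM, highest in 4 of 6 libraries), close to the unnamed sub-cluster 5 (1722 ± 697 CPM), and was lowest, of those with at least 20 cells per library, in the interferon sub-cluster 6 (692 ± 247 CPM). Mmp8 was highest in the recently recruited sub-cluster 3 in 5 of 6 libraries, at 82.9, 27.4 and 26.5 CPM under IgG and 62.2, 53.2 and 20.8 CPM under anti-VSIG4. Cells with granule genes such as Camp, Ngp and Ltf formed a sub-cluster of only 64 cells, too few to rank.

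Fibroblast sub-clusters had fewer than 20 cells in some libraries and are described without a test. Sub-cluster 1 had only 4 cells in anti-VSIG4 3, and sub-cluster 6 had only 10 in anti-VSIG4 1. The universal-type sub-cluster 1, led by Dpt, Pi16 and Clec3b, held most of the Mmp3 of fibroblasts (80.9% of their UMIs). It had the highest Adamts1 in all 6 libraries (315 ± 43.7 CPM) and the highest mean Adamts2 (532 ± 130.2 CPM) and Adamts5 (185 ± 143 CPM). The myofibroblast sub-cluster 6, led by Igfbp3, Serpine2 and Lrrc15, had the highest Timp3 (2203 ± 1018 CPM), Mmp14 (1024 ± 300.1 CPM) and Adamts12 (139 ± 50.3 CPM), each in 5 of 6 libraries. Mmp2 was alike in both, at 829 ± 145 CPM in sub-cluster 1 and 798 ± 126 CPM in sub-cluster 6.

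**Figure D4:**
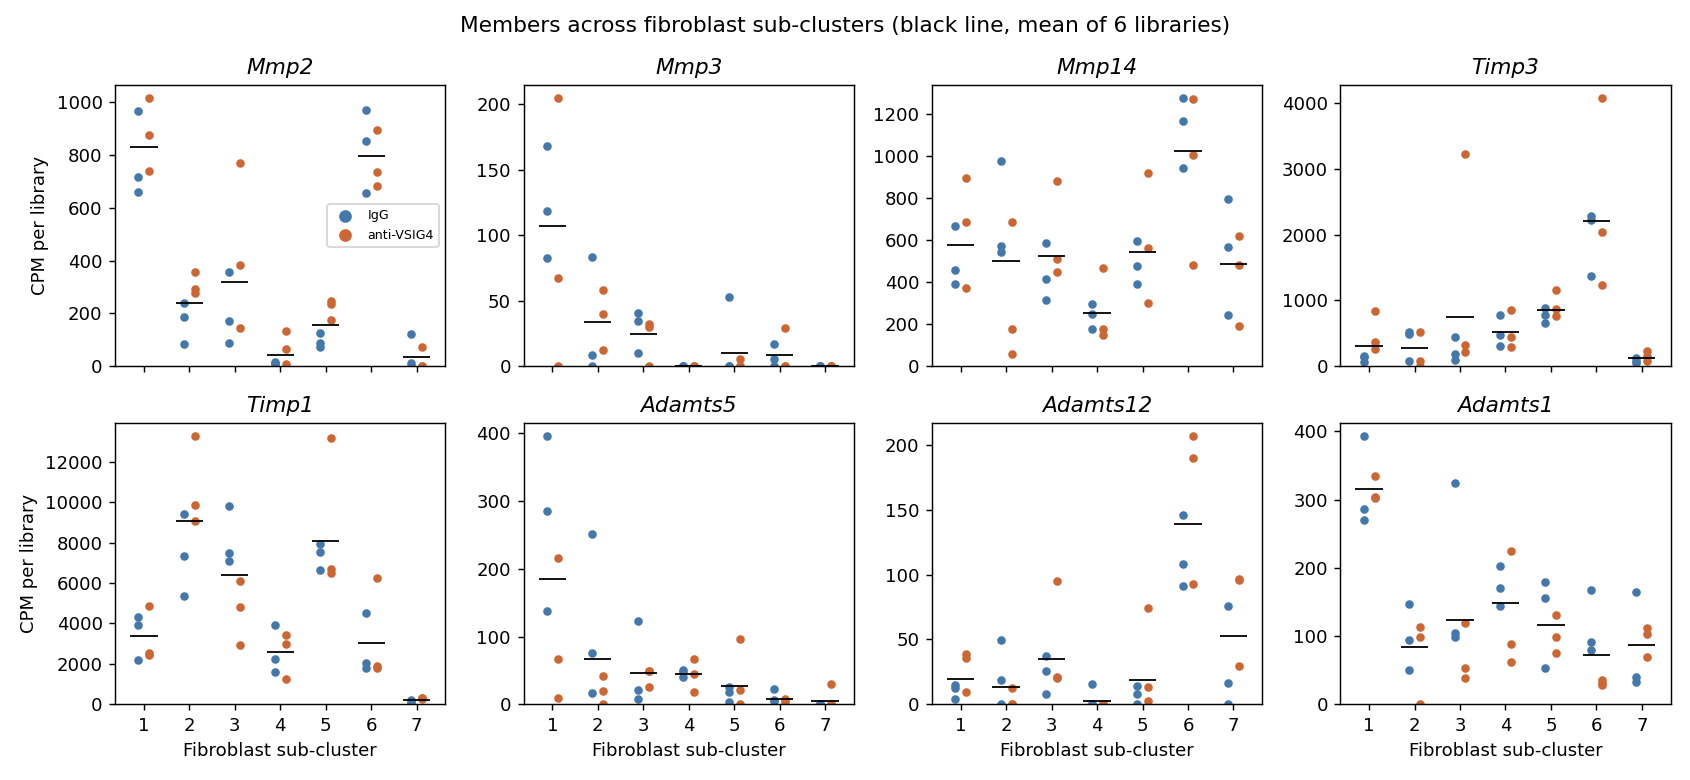
Level of 8 members (panels, CPM) in each library across the 7 fibroblast sub-clusters (x axis); points are libraries by group and black lines the mean of 6. Mmp3, Adamts5 and Adamts1 are highest in sub-cluster 1, and Timp3, Mmp14 and Adamts12 in sub-cluster 6.

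The 2 treatments were then compared within each class on summed UMIs with edgeR's quasi-likelihood test, Benjamini-Hochberg adjusted over all genes tested. No member passed a false discovery rate of 0.05 in any class. In neutrophils 0 of 14 tested members passed (background 0.00918% of genes), in monocyte/macrophages 0 of 24 (background 0%), in fibroblasts 0 of 23 (background 0%) and in tumour/epithelial cells 0 of 21 (background 0%). In the 6 other classes together 0 of 55 member tests passed (background 0.00253%), and in 19 sub-clusters 0 of 147 (background 0.00471%). DESeq2 also called 0 members in the 4 main classes, where it called 0.101% of genes with an adjusted p. At an unadjusted p under 0.05 there were 2 members in neutrophils (background 5.74% of genes), 2 in monocyte/macrophages (4.01%), 5 in fibroblasts (6.1%) and 4 in tumour/epithelial cells (3.9%). Groups did not overlap for 2 members in neutrophils (background 12.7%), 2 in monocyte/macrophages (7.69%), 5 in fibroblasts (10.9%) and 3 in tumour/epithelial cells (7.5%). In other classes they did not overlap for 4 of 15 in T cells (background 7.79%), 3 of 13 in endothelial cells (9.48%), 2 of 7 in NK cells (10.5%) and 2 of 8 in migratory dendritic cells (17.1%). In all, 32 members were tested in at least 1 class and 15 were too low to test in any. The members with the smallest p follow as values that did not pass.

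In fibroblasts these were Timp3, Adamts1 and Adamts12. Timp3 was at 411, 547 and 564 CPM under IgG and 1068, 661 and 1185 CPM under anti-VSIG4. The groups did not overlap, and the log2 fold change was 0.89 ± 0.25 (approximate SE, n = 3 per group; edgeR adjusted p = 0.525, DESeq2 adjusted p = 0.12). Adamts12 was at 26.8, 17.9 and 25.9 CPM against 40.1, 28.7 and 86.6 CPM, a log2 fold change of 1.07 ± 0.38 (edgeR adjusted p = 0.745). Adamts1 was at 195, 240 and 168 CPM against 158, 124 and 86.6 CPM, a log2 fold change of -0.76 ± 0.27 (edgeR adjusted p = 0.708). Adamts5 was at 107, 100.5 and 106 CPM against 78.3, 57.3 and 14.04 CPM, with a log2 fold change of -1.08 ± 0.45 (edgeR adjusted p = 0.793); the lowest library, anti-VSIG4 3, had 54 fibroblasts. Mmp11 was at 9.74, 2.47 and 8.09 CPM against 17.2, 9.76 and 12.9 CPM, with a log2 fold change of 0.91 ± 0.48 (edgeR adjusted p = 0.859). These 5 were the members whose groups did not overlap in fibroblasts. Among libraries with few nucleus-like cells (IgG 1, anti-VSIG4 1 and 2) and with many (IgG 2, IgG 3 and anti-VSIG4 3), the log2 fold changes were 1.01 and 1.04 for Timp3, 0.29 and 1.93 for Adamts12, -0.53 and -1.30 for Adamts1 and -0.72 and -2.92 for Adamts5.

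The make-up of the fibroblasts also varied between libraries. The myofibroblast sub-cluster was 11.1%, 8.45% and 6.11% of fibroblasts under IgG and 12.05%, 11.5% and 20.4% under anti-VSIG4 (p = 0.1 by an exact two-sided permutation test, the lowest possible with 3 libraries a group). Sub-cluster 1 was 40.9%, 17.6% and 13.1% against 19.3%, 12.1% and 7.41% (exact permutation p = 0.4). Within the myofibroblast sub-cluster the groups overlapped for Timp3, at 2286, 2218 and 1364 CPM against 4076, 2041 and 1234 CPM. Within sub-cluster 1, which had 4 cells in anti-VSIG4 3, the groups overlapped for Adamts1, at 287, 393 and 270 CPM against 335, 304 and 302 CPM. The part of these shares in the class-level values was not tested. The 12 macrophage markers summed to 984 to 1335 CPM in IgG fibroblasts and 1440.3 to 2038 CPM in anti-VSIG4 fibroblasts, with none at 0. The 8 tumour/epithelial markers summed to 295, 721 and 1342 CPM against 239, 296 and 219.9 CPM, and the 8 fibroblast markers to 16216 to 22015 CPM against 22057 to 25312 CPM, with none at 0 in either list. The part of these 3 lists was not tested.

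In monocyte/macrophages the smallest p was that of Timp2, at 255, 265 and 267 CPM under IgG and 175, 195 and 125 CPM under anti-VSIG4. The groups did not overlap, with a log2 fold change of -0.71 ± 0.17 (edgeR adjusted p = 0.96, DESeq2 adjusted p = 0.11). Sub-cluster 8, the highest in Timp2, was 3.49%, 22.3% and 13.5% of the class under IgG and 1.5%, 4.44% and 2.93% under anti-VSIG4 (exact permutation p = 0.2). Within it Timp2 overlapped between groups, at 492, 502 and 705 CPM against 388, 488 and 555 CPM. The same held in sub-cluster 1, at 592, 326 and 322 CPM against 406, 499.8 and 287 CPM. Overlap with so few libraries does not show that levels were alike. The part of sub-cluster shares in the class-level Timp2 values was not tested. Mmp9 was at 152, 64.4 and 75.9 CPM under IgG and 222, 379 and 96.7 CPM under anti-VSIG4, which overlap, with a log2 fold change of 1.22 ± 0.47 (edgeR adjusted p = 1.00). The 9 neutrophil markers, none at 0, summed to 1092 to 2770 CPM in IgG and 1795 to 5019.7 CPM in anti-VSIG4 monocyte/macrophages, and their part in Mmp9 was not tested. The 5 erythroid markers, none at 0, summed to 5.95 to 69.7 CPM under IgG and 131.5 to 344 CPM under anti-VSIG4, which do not overlap, and their part in Timp2 and Mmp9 was not tested. Among libraries with few and with many nucleus-like cells the log2 fold changes were -0.45 and -1.05 for Timp2 and 1.00 and 0.51 for Mmp9. Mmp2, the next by p, had a log2 fold change of 0.60 ± 0.30 (edgeR adjusted p = 1.00).

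In neutrophils Mmp19 and Mmp12, which belong to macrophages, had the smallest p. Mmp19 was at 23.5, 19.1 and 16.7 CPM under IgG and 31.0, 39.5 and 27.4 CPM under anti-VSIG4, a log2 fold change of 0.80 ± 0.21 (edgeR adjusted p = 0.731). In T cells Mmp19 was at 12.4, 14.8 and 12.4 CPM against 20.5, 20.3 and 19.97 CPM. Mmp12 was at 24.4, 17.8 and 10.2 CPM in IgG neutrophils and 43.7, 32.5 and 20.8 CPM in anti-VSIG4 neutrophils (log2 fold change 0.98 ± 0.37; edgeR adjusted p = 0.813), beside 11.6, 16.7 and 9.31 CPM against 37.4, 40.9 and 13.3 CPM in T cells. The 12 macrophage markers, none at 0, summed to 839.6 to 1577 CPM in IgG and 1489.7 to 2485 CPM in anti-VSIG4 neutrophils, and to 850.4 to 1513 CPM and 1810.2 to 2459.5 CPM in T cells. Their part in both genes was not tested. The log2 fold changes with few and with many nucleus-like cells were 0.61 and 0.77 for Mmp19 and 0.73 and 0.68 for Mmp12. Adamts10 came next, with a log2 fold change of -1.14 ± 0.53 (edgeR adjusted p = 0.813).

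In tumour/epithelial cells Adamts1, Mmp23 and Mmp28 were lower in every anti-VSIG4 library than in any IgG library, and none passed the test. Adamts1 was at 26.7, 29.4 and 26.0 CPM against 15.9, 15.4 and 18.4 CPM, a log2 fold change of -0.71 ± 0.19 (edgeR adjusted p = 1.00). Mmp23 had a log2 fold change of -0.81 ± 0.26 and Mmp28 one of -0.78 ± 0.28 (edgeR adjusted p = 1.00 for both). With few and with many nucleus-like cells the log2 fold change of Adamts1 was -0.80 and -0.52. The 8 fibroblast markers, none at 0, summed to 107 to 306 CPM in IgG and 118 to 515 CPM in anti-VSIG4 tumour/epithelial cells, and their part was not tested.

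**Figure D5:**
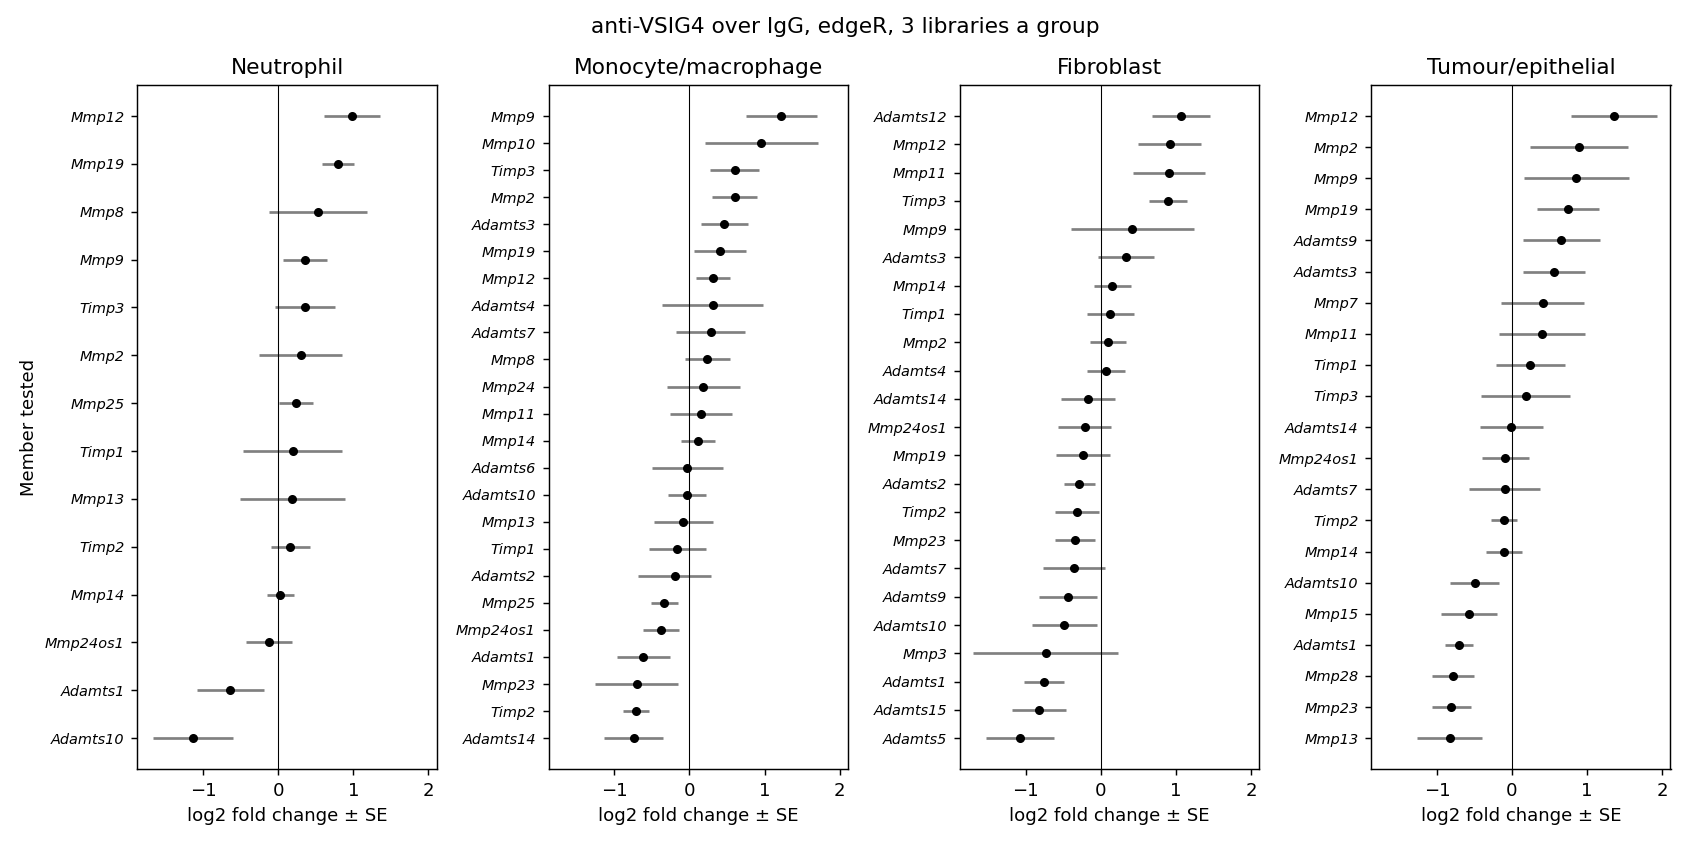
Fitted log2 fold change, anti-VSIG4 over IgG, of every member tested in each of 4 classes (panels), with approximate SE bars; 0 marks no difference. No member passed the false discovery rate in any panel.

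Both directions were represented among the members tested. In neutrophils 11 of 14 tested members had a positive log2 fold change (median 0.21, against -0.01 over all genes tested), in monocyte/macrophages 13 of 24 (0.13 against 0.00), in fibroblasts 10 of 23 (-0.22 against 0.00) and in tumour/epithelial cells 10 of 21 (-0.01 against -0.01). In the 6 other classes 9 of 55 member tests had an unadjusted p under 0.05. The share of all gene tests in those classes is not given here, so the 9 are not read as a result. In the sub-clusters 18 of 147 had an unadjusted p under 0.05 (12.2%, against 4.4% of all gene tests there). The same members and the same libraries recur across these tests, which are thus not independent, so the 18 are not read as a result. Mmp12 in migratory dendritic cells, named after its values were seen, was at 16.0, 17.7 and 2.30 CPM against 126, 29.9 and 31.1 CPM, with a log2 fold change of 2.40 ± 0.70 (edgeR adjusted p = 0.325), and the anti-VSIG4 1 library stood apart. This class held 395966 to 563208 UMIs in the IgG libraries, so those values rest on few Mmp12 UMIs. In T cells the Mmp12 mean was 21.6 CPM. The 12 macrophage markers summed to 512 to 2264 CPM in IgG and 1393 to 2036 CPM in anti-VSIG4 migratory dendritic cells. At most 1 was at 0 in a library, and their part was not tested.

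Genes that act with these proteases were taken from 4 lists, and none passed the test in any of the 4 main classes. Of the activators and inducers, 12 of 17 were tested in neutrophils and all 12 had a positive fitted change (median log2 0.21), as did 5285 of all 10888 genes tested there. In monocyte/macrophages 4 of 12 were positive (median log2 -0.10), in fibroblasts 7 of 14 and in tumour/epithelial cells 7 of 12. Lcn2, a lipocalin that binds Mmp9, had the smallest p of that list: in tumour/epithelial cells it was at 165, 125 and 104 CPM against 278, 328 and 311 CPM, with a log2 fold change of 1.24 ± 0.21 (edgeR adjusted p = 1.00). In monocyte/macrophages Lcn2 was at 14.9, 9.68 and 10.8 CPM against 45.6, 20.9 and 28.6 CPM, with a log2 fold change of 1.41 ± 0.27 (edgeR adjusted p = 0.50). The 9 neutrophil markers summed to 1092 to 2770 CPM in IgG and 1795 to 5019.7 CPM in anti-VSIG4 monocyte/macrophages. Their part in Lcn2, and that of free tumour-cell RNA, was not tested. Of the 21 matrix substrates, 18 were tested in fibroblasts, 13 with a positive fitted change (median log2 0.17), and Thbs2, a matricellular protein, had a log2 fold change of 0.84 ± 0.33 (edgeR adjusted p = 0.764). Of the other inhibitors and clearance genes, 8 of 14 were tested in fibroblasts, 3 positive and 5 negative, and of the ADAM and astacin relatives 10 of 14 in monocyte/macrophages, 5 in each direction.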

How the data were processed

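Single-cell RNA was measured in 1 tumour library per mouse, 3 per group. The authors deposited 1 sparse matrix per library of whole-number UMI counts per gene and barcode. The matrices were written by PISA 1.0, as their headers state. The submitters' processing notes also list STAR and Seurat 4.11. The sources used here do not give the genome build, annotation or strand, so reads of Mmp24 and Mmp24os1 cannot be told apart. Library totals were 26606234 to 47221033 UMIs, with medians of 2127 to 2703 per kept cell. Barcode names are running labels per library, and 11691 occur in 2 or more libraries.

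Cells were kept with at least 500 UMIs, 300 genes and at most 20% mitochondrial UMIs. Scrublet marked 0 cells, was taken not to have worked, and no doublets were removed. Leiden clusters (scanpy 1.11.5, leidenalg 0.10.2, Python 3.11.15; resolution 1, 3000 variable genes without the members, 40 principal components, 20 neighbours, seed 0) were named from marker lists (log2 of CPM with an offset of 20). No name was given with under 3 raised markers or with more leading markers of another class than of its own. Clusters of all cells with at least 2 leading markers of another class stayed unnamed, as did sub-clusters without a leading marker of their own. A single leading marker of another class did not bar a name, and the endothelial cluster, for example, held 1. Sub-clusters took 4 neighbours per library. Clusters whose median cell had over 15% of UMIs in genes spanning over 100 kb were called nucleus-like, a rule set after clusters were seen, as were those that left mixed clusters unnamed. Spans from GENCODE covered 97% of UMIs.

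UMIs were summed per library and class and tested in R 4.3.3 with edgeR 4.0.16 (TMM, filterByExpr, robust glmQLFit and glmQLFTest) over all genes, at a false discovery rate of 0.05. The approximate SE is the log2 change divided by the root of its F statistic. DESeq2 1.42.0, other scaling and filters, replicate terms, library kind and left-out libraries were tried. Sub-cluster shares were compared by an exact permutation test. Code was tested on simulated data. Members given in full were a set list, those past the threshold, and the 3 lowest p in each main class among members reaching 5 CPM. The members and lists were chosen with earlier results of these data known.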

Additional observations from a re-analysis of the deposited data

Results flagged for a closer look

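For Timp2 the groups did not overlap in monocyte/macrophages, with a log2 fold change of -0.71 in anti-VSIG4 libraries (7.69% of all genes tested there had groups that did not overlap), nor in T cells, with one of 0.37 (7.79% of genes). The difference between these classes was not tested, and T cells had 58.5 ± 10.9 CPM of Timp2. The 12 macrophage markers in T cells, none at 0, summed to 850.4 to 1513 CPM under IgG and 1810.2 to 2459.5 CPM under anti-VSIG4, and monocyte/macrophages held 44.8% of Timp2 UMIs; their part was not tested. The opposite-strand transcript Mmp24os1 likewise had non-overlapping groups in opposite directions, with log2 fold changes of -0.70 in endothelial cells, -0.57 in NK cells and 0.66 in migratory dendritic cells. Of all genes tested, 9.48%, 10.5% and 17.1% had groups that did not overlap in these classes, and the difference between classes was not tested.

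Nucleus-like cells, which were left out of all comparisons, held 66.8% of the 1751 UMIs of Adamts6.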

How the results depend on the processing

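No member was called in any main class under at least 14 of 16 alternatives, 1 of which left out cells by doublet score. Without a low-count filter 3 members were called in fibroblasts (Adamts16, Adamts5 and Timp3) and 1 in neutrophils (Mmp12). The share of all genes called in that setting is not given here, so these calls are not read as a result. The other exception was the fit within the libraries with many nucleus-like cells, where 1 anti-VSIG4 library is assumed to vary like the others. Its calls are not read as a result. In fibroblasts the log2 fold changes there included 1.93 for Adamts12, -2.92 for Adamts5 and -4.61 for Mmp3, which had 1 UMI in anti-VSIG4 3. In monocyte/macrophages they included 0.98 for Mmp19 and -1.05 for Timp2. In other classes and sub-clusters 8 member tests passed without the filter, 5 and 6 within the libraries with few and with many nucleus-like cells, and 0 to 2 with 1 library left out. The cause was not tested. The highest class was the same for 32 of 38 members by share of thinned cells and 37 by the median over libraries. Nothing is drawn about doublets from leaving out the highest Scrublet scores, since that caller was taken not to have worked.

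Deviations of same-numbered libraries correlated at 0.0993 to 0.339 over classes for number 1, 0.125 to 0.384 for number 3 and -0.238 to -0.0222 for number 2. Number 2 was negative in every class. Libraries numbered 1 both had few nucleus-like cells and those numbered 3 both had many, while IgG 2 had many and anti-VSIG4 2 few. Pairing and library kind thus cannot be told apart by these correlations, and the numbers were not taken to pair the libraries. With the replicate block 0 members were called in the 4 main classes, while genes called in fibroblasts rose from 0 to 47. Elsewhere 3 members were called, and the share of all genes called there is not given here.

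Some fitted log2 changes, none called, changed sign. Within libraries with few nucleus-like cells they were -0.39 for Mmp2 in fibroblasts, -0.33 for Mmp8 and -0.0231 for Mmp9 in neutrophils, and 0.0354 for Adamts1 and 0.0024 for Adamts9 in endothelial cells. Within those with many they were -0.0256 for Mmp12 in monocyte/macrophages, -0.71 for Timp1 and 0.16 for Timp2 in fibroblasts and 0.024 for Adamts9 in endothelial cells. With library kind as a term they were 0.0233 for Adamts9 and -0.16 for Timp1. With 1 library left out, ranges were -0.0613 to 0.34 for Mmp2, -2.06 to 0.0503 for Mmp3, -0.094 to 0.36 for Mmp14 and -0.23 to 0.41 for Timp1 in fibroblasts. They were -0.39 to 0.25 for Mmp13 and -0.15 to 0.62 for Mmp19 in monocyte/macrophages, and -0.63 to 0.015 for Adamts1, -0.48 to 0.28 for Adamts4 and -0.24 to 0.21 for Adamts9 in endothelial cells.

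Groups had 3 libraries each, the smallest library held 54 fibroblasts, and 15 of 47 members were too low to test in any class.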
